A study of Mus musculus with 17 samples.

Results

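The calcium-regulated NFAT loci comprised 50 of the 66177 accessible regions in the deposited ATAC-seq table, namely every region whose nearest or overlapping gene was Nfatc1, Nfatc2 or Nfatc3 in either of the table's annotation columns. Of these, 25 belonged to Nfatc1 on chromosome 18, 17 to Nfatc2 on chromosome 2 and 8 to Nfatc3 on chromosome 8 (mm9), and 30 of the 50 carried the gene's name in both columns. ATAC-seq cuts open chromatin with a transposase, and the deposited unit, RPPM, is the reads in a region per 1000000 reads in all regions of the library. Accessibility was measured in naive B cells (nB, B220+ Fas- GL7-) and antigen-binding germinal center B cells (GCB, B220+ Fas+ GL7+ PE+) of the lymph node and in CD138+ plasma cells of the bone marrow (BMPC). Dnmt3-sufficient controls (C, Dnmt3a fl/fl and Dnmt3b fl/fl without Cre) were set against Dnmt3-deficient littermates (KO), which carried the same floxed alleles and 1 Cre allele, all on a mixed B6;129S4 background. The Cre allele deletes the catalytic domains of Dnmt3a and Dnmt3b from early B cell development onward, before the nB, GCB and BMPC stages. The paper showed the rearrangement by PCR in B220+ bone marrow cells. These data do not measure how complete it was in the sorted cells. The Cre allele occurred in KO mice only, so Cre and the deletion cannot be told apart.

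There were 3 C and 2 KO libraries for nB, 2 C and 4 KO for GCB, and 3 C and 2 KO for BMPC. Each nB library was made from 1 male and each BMPC library from 1 female, whereas each GCB library pooled 2 mice of 1 sex, and GCB and BMPC were taken 30 days after immunization with PE. Sex, tissue and immunization therefore cannot be told apart from cell type in the comparison of nB with BMPC. Immunization cannot be told apart from cell type in the comparison of nB with GCB, nor tissue in that of GCB with BMPC. Sex differed in part in these comparisons, since GCB pools were of either sex. The mice were young adults when the experiments began. Reads in regions numbered 4104875 to 6079018 in nB, 907959 to 2280954 in GCB and 5357687 to 8232313 in BMPC, and 3 reads corresponded to between 0.364 RPPM and 3.3 RPPM. Regions of a few RPPM were thus measured least precisely in GCB.

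NFATc1, NFATc2 and NFATc3 are transcription factors that antigen receptor signaling activates through calcium. Store-operated calcium entry activates the phosphatase calcineurin, which dephosphorylates NFAT in the cytoplasm and lets it enter the nucleus, and kinases such as DYRK1A and GSK3 return it to the cytoplasm. In lymphocytes NFATc2 and NFATc3 are largely present before stimulation, whereas the Nfatc1 gene has an upstream inducible promoter, P1, and a downstream promoter, P2, that serves the constitutive transcripts.

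Positions are given in kb from the most upstream annotated start of each gene to the center of the region, positive in the direction of transcription. Introns made up 31 of the 50 NFAT regions (62%), compared with 35.5% of all regions. A further 10 were intergenic, 5 were promoters and 4 lay in exons. The NFAT regions were 165 to 2298 bp wide with a median of 533 bp, close to the median of 510 bp for all regions.

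The sequences below are the central 250 bases of 5 regions on which the results turned, printed in the direction of transcription from mm9 (NCBIM37), with matches to 6 short motifs in capitals. The first is the intron 1 region of Nfatc2 at +21.1 kb (chr2:168405978-168406227, minus strand), where KO BMPC had higher values than C BMPC. The next pair lies in the same intron at +25.6 kb (chr2:168401479-168401728) and at +26.6 kb (chr2:168400472-168400721). The fourth is intergenic, at +162.6 kb (chr2:168264462-168264711), and was highest in GCB. The last is the region upstream of Nfatc3 at -4.4 kb (chr8:108578230-108578479, plus strand), which had the largest log2(RPPM + 1) decrease from C nB to C BMPC among the NFAT regions.
Nfatc2 +21.1 kb: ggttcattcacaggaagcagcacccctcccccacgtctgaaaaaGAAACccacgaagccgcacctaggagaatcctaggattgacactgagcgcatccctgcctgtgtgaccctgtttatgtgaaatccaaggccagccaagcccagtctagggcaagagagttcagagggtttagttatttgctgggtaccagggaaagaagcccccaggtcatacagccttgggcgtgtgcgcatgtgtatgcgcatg
Nfatc2 +25.6 kb: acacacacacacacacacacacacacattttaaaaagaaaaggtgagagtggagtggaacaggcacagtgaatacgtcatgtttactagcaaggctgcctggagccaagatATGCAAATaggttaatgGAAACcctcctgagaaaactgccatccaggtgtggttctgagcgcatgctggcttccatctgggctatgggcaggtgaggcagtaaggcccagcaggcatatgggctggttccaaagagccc
Nfatc2 +26.6 kb: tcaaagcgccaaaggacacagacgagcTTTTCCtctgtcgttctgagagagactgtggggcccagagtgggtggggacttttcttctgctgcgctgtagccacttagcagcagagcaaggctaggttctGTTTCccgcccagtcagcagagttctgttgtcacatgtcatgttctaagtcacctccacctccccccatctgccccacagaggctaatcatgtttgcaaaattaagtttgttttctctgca
Nfatc2 +162.6 kb: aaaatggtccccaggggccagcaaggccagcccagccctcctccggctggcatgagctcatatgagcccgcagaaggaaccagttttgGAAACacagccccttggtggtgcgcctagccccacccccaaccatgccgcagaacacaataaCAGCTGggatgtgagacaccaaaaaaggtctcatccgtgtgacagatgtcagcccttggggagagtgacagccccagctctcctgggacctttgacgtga
Nfatc3 -4.4 kb: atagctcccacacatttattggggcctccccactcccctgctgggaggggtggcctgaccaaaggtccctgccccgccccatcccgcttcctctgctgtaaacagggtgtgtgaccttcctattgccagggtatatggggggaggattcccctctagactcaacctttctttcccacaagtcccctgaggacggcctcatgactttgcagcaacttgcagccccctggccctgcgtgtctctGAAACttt

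The letters searched on both strands were TTTTCC for the NFAT core, TGACTCA for AP-1, GGAAGT for PU.1, ATGCAAAT for Oct-2, CAGCTG for E2A and, for IRF4, GAAAC. The NFAT core occurred in 19 of the 50 NFAT regions (38%), compared with 38.5% of the 65893 regions on assembled chromosomes and 38.9% of regions within 50 bp of the same widths. AP-1 letters occurred in 4 NFAT regions (8%, against 11.2% of regions of like width), PU.1 letters in 25 (50%, against 43.6%) and IRF4 letters in 36 (72%, against 73.5%). E2A letters occurred in 22 (44%, against 32.7%) and Oct-2 letters in 6 (12%, against 6.2%). Of the sequences shown, Nfatc2 +26.6 kb held 1 NFAT core, and Nfatc2 +25.6 kb held 1 Oct-2 match. These matches are a description and were not tested.

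At the annotated start sites, no NFAT region passed the threshold between C cell types, whereas regions within the genes and beside them did. A region was called when its limma adjusted p did not exceed 0.01 and its change was 2-fold or more on log2(RPPM + 1), a scale that understates changes of low regions. Of the 50 regions, 24 were called in at least 1 of the 3 C comparisons, which were 12 of 25 for Nfatc1, 9 of 17 for Nfatc2 and 3 of 8 for Nfatc3, compared with 51.8% of all regions. Over all 9 comparisons within a genotype or a cell type, 31 of 50 (62%) were called, compared with 60.2% of all regions.

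**Figure D1:**
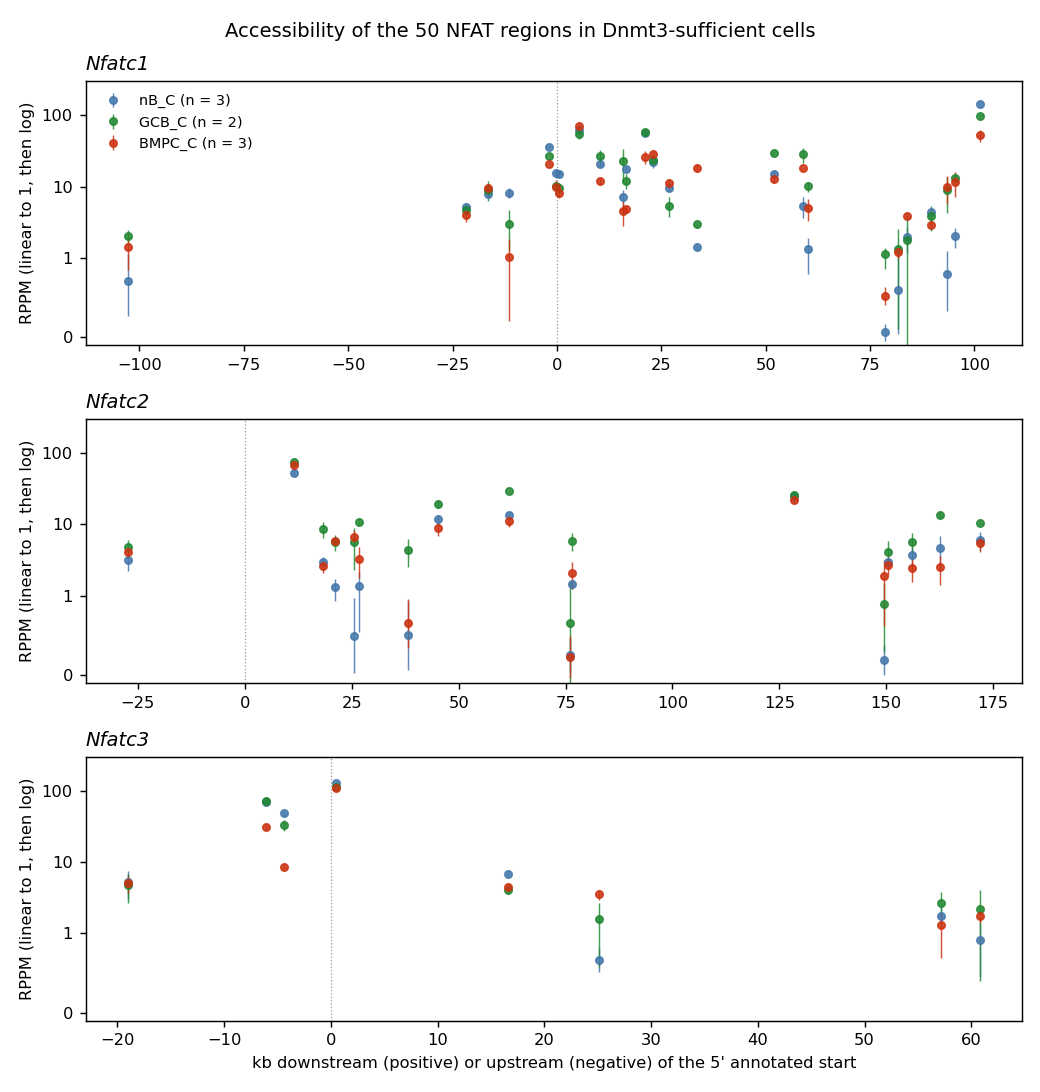
Mean RPPM ± SD (vertical axis, linear to 1 and logarithmic above) of the 50 NFAT regions in C libraries, by distance in kb from the most upstream annotated start of each gene (dotted line). Points for nB_C (n = 3), GCB_C (n = 2) and BMPC_C (n = 3) lie close together at the start sites and separate at regions such as Nfatc1 +33.5 kb (18.3 RPPM in BMPC_C against 1.42 RPPM in nB_C).

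The Nfatc1 P2 region at +5.2 kb (chr18:80903987-80905316, promoter and 5′ UTR) measured 68.7, 58.4 and 61.2 RPPM in C nB, 60.7 and 49.2 RPPM in C GCB, and 75.2, 69.5 and 67.4 RPPM in C BMPC. The nB libraries overlapped both other groups. The P1 region at -0.1 kb (chr18:80909741-80910038) was smaller, with 15.6, 17.3 and 12.8 RPPM in C nB, 9.24 and 11.2 RPPM in C GCB, and 7.28, 10.9 and 11.7 RPPM in C BMPC. Every C GCB and C BMPC library lay below every C nB library at P1, but the log2 differences of -0.53 ± 0.25 (SE; limma, adjusted p = 0.0955) and -0.58 ± 0.23 (adjusted p = 0.0314) did not pass. The flanking regions at -1.8 kb and +0.5 kb, chosen after their values were seen, also decreased without a call. Their means were 36.3 and 14.8 RPPM in C nB, 26.8 and 9.57 RPPM in C GCB, and 20.8 and 8.20 RPPM in C BMPC. In KO cells the decrease at P1 from nB to GCB was called, at -1.02 ± 0.24 (limma, adjusted p = 9.94e-04), with 15.8 and 15 RPPM in nB and 8.81, 8.27, 4.82 and 6.99 RPPM in GCB. That call was lost without GCB KO replicate 3 (-0.86), without nB KO replicate 1 (-0.98) and without nB KO replicate 2 (adjusted p = 0.0126).

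The start-site region of Nfatc2 at +11.5 kb (chr2:168414524-168416821) lay over the second annotated start, and no NFAT region covered the first. It measured 57.2, 54.6 and 46.9 RPPM in C nB, 74.8 and 73.1 RPPM in C GCB, and 67.6, 69.5 and 64.0 RPPM in C BMPC. It was higher in every C GCB and C BMPC library than in any C nB library, by 0.48 ± 0.11 (adjusted p = 0.00114) and 0.34 ± 0.10 (adjusted p = 0.00545) on the log2 scale, below the 2-fold limit. The Nfatc3 start-site region at +0.5 kb (chr8:108582422-108584112) was the highest of that gene, at 137, 128 and 119 RPPM in C nB, 114 and 113 RPPM in C GCB, and 107, 110 and 109 RPPM in C BMPC. Its C differences from nB were -0.16 ± 0.09 in GCB and -0.23 ± 0.08 in BMPC, and neither passed.

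Between C nB and C GCB, 13 NFAT regions rose, compared with 14.2% of all regions called in that direction, and 1 fell, compared with 8.47%. The 13 made up 26% of the 50 regions and the 1 made up 2%. Nfatc2 contributed 8 of the 13 and Nfatc1 the other 5, and no Nfatc3 region was called. The median log2 difference was 0.48 over the NFAT regions and 0.05 over all regions.

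Within Nfatc1 the largest increase lay in intron 9 at +93.5 kb (chr18:80816057-80816621), which measured 0.731, 0.377 and 1.30 RPPM in C nB and 12.3 and 5.62 RPPM in C GCB, a log2 difference of 2.41 ± 0.36 (limma, adjusted p = 4.45e-06). In C BMPC it measured 11.2, 5.29 and 13.5 RPPM, 2.56 ± 0.32 above nB (adjusted p = 1.10e-07). The groups of both comparisons did not overlap. The intron 7 region at +60.1 kb (chr18:80849499-80849960) followed with 1.95, 0.942 and 1.12 RPPM in C nB and 8.80 and 11.2 RPPM in C GCB, a rise of 2.25 ± 0.30 (adjusted p = 8.84e-07). In C BMPC it measured 6.50, 3.10 and 5.29 RPPM, between the other C groups and 1.33 ± 0.27 above nB (adjusted p = 1.20e-04). Regions at +58.9 kb and +95.4 kb, chosen after their values were seen, were also called higher in both GCB and BMPC than in nB.

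The intron 2 region of Nfatc1 at +15.8 kb (chr18:80893850-80894251) was high in GCB alone among the C groups. It measured 9.01, 6.78 and 5.40 RPPM in C nB, 15 and 30.4 RPPM in C GCB, and 6.50, 3.10 and 4.05 RPPM in C BMPC. The rise to GCB of 1.5 ± 0.29 (limma, adjusted p = 1.32e-04) was lost without GCB C replicate 2 (1.01, adjusted p = 0.0243), whereas the fall to BMPC of -2.06 ± 0.29 (adjusted p = 1.07e-06) remained a call without either library. With 1 of the 2 GCB C libraries left out, the lone library is assumed to vary like the other groups. The intron 6 region at +51.9 kb (chr18:80857490-80858313) measured 30.3 and 28.6 RPPM in C GCB and fell in BMPC to 14.05, 11.1 and 13.2 RPPM, by -1.15 ± 0.18 (adjusted p = 5.60e-06).

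In Nfatc2 the regions that rose in GCB lay in introns 1, 3 and 5 and, in 1 case, downstream of the gene. The intron 1 region at +26.6 kb, the second of the adjacent pair printed above, measured 0.487, 2.07 and 1.49 RPPM in C nB, 11.4 and 10.3 RPPM in C GCB, and 3.25, 1.82 and 4.83 RPPM in C BMPC. Its rise to GCB was 2.40 ± 0.33 (limma, adjusted p = 1.26e-06) and its fall to BMPC -1.52 ± 0.33 (adjusted p = 3.19e-04). The neighboring region at +25.6 kb, 1 kb away, measured 0, 0.565 and 0.931 RPPM in C nB, 7.92 and 3.28 RPPM in C GCB, and 8.32, 4.93 and 6.85 RPPM in C BMPC. Unlike its neighbor it did not fall from GCB to BMPC (0.29 ± 0.35, adjusted p = 0.500), and it lay 2.39 ± 0.31 above nB in BMPC (adjusted p = 1.81e-07). The difference between the changes of these neighboring regions was not tested.

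Downstream of Nfatc2, the intergenic region at +162.6 kb measured 6.82, 4.52 and 2.42 RPPM in C nB, 14.1 and 12.6 RPPM in C GCB, and 3.51, 2.55 and 1.40 RPPM in C BMPC. GCB lay above both other C groups without overlap. The fall from GCB to BMPC of -2.09 ± 0.36 (limma, adjusted p = 2.51e-05) was the largest of an Nfatc2 region, while the rise from nB to GCB of 1.44 ± 0.36 (adjusted p = 0.00213) was lost without GCB C replicate 1 (adjusted p = 0.0281), GCB C replicate 2 (adjusted p = 0.0157) or nB C replicate 3 (1.13, adjusted p = 0.021). The intron 3 region at +38.2 kb (chr2:168388902-168389079) rose from 0, 0.754 and 0.744 RPPM in C nB to 3.08 and 5.62 RPPM in C GCB and fell again to 0.910, 0.730 and 0.311 RPPM in C BMPC. Both of its calls were lost without GCB C replicate 2 (1.49, adjusted p = 0.0354, and -1.32, adjusted p = 0.0513), and its fall also without BMPC C replicate 3 (adjusted p = 0.0119).

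Between C nB and C BMPC, 8 NFAT regions rose (16% of the 50, compared with 18% of all regions) and 6 fell (12%, compared with 20.1%). Between C GCB and C BMPC, 1 rose (2%, compared with 11.3%) and 14 fell (28%, compared with 19.1%). Of these 14, 7 belonged to Nfatc2, which had 0 calls in the other direction, 5 to Nfatc1 and 2 to Nfatc3. The 3 C comparisons share libraries, so their counts are not independent of each other.

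The region that rose from GCB to BMPC was in intron 3 of Nfatc1 at +33.5 kb (chr18:80875795-80876755). It measured 1.46, 1.32 and 1.49 RPPM in C nB, 3.08 and 2.81 RPPM in C GCB, and 15.7, 20.6 and 18.7 RPPM in C BMPC, and 17.5 and 13.3 RPPM in KO BMPC. BMPC of both genotypes thus lay above every nB and GCB library. The C increase was 2.99 ± 0.28 from nB (limma, adjusted p = 6.53e-10) and 2.29 ± 0.32 from GCB (adjusted p = 8.79e-07).

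Other Nfatc1 regions lost accessibility in BMPC. The Nfatc1 region with the highest mean, in intron 9 at +101.3 kb (chr18:80807806-80809304), decreased from 135, 142 and 146 RPPM in C nB through 94.1 and 99.3 RPPM in C GCB to 62.8, 42.5 and 51.5 RPPM in C BMPC. No 2 of these C groups overlapped, and the BMPC value was 1.43 log2 units below nB (-1.43 ± 0.11, adjusted p = 5.99e-12), while the step from nB to GCB (-0.54 ± 0.12) and that from GCB to BMPC (-0.89 ± 0.12) were under 2-fold. The intron 2 region at +16.6 kb (chr18:80893003-80893427) measured 17.8, 18.5 and 16.2 RPPM in C nB, 10.1 and 14.1 RPPM in C GCB, and 5.33, 4.56 and 4.83 RPPM in C BMPC, a fall of -1.65 ± 0.22 from nB (adjusted p = 3.69e-07).

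Upstream of Nfatc1, the intergenic region at -11.5 kb (chr18:80921020-80921547), which 1 annotation column assigned to the neighboring gene Atp9b, measured 9.5, 6.97 and 8 RPPM in C nB, 1.76 and 4.22 RPPM in C GCB, and 1.95, 0.365 and 0.779 RPPM in C BMPC. Its fall to BMPC of -2.24 ± 0.32 (limma, adjusted p = 1.17e-06) held without any single library. Its fall to GCB of -1.26 ± 0.36 (adjusted p = 0.00615) was lost without GCB C replicate 1 (-0.80, adjusted p = 0.161) and without nB C replicate 1 (adjusted p = 0.0282), 2 (adjusted p = 0.0109) or 3 (adjusted p = 0.0174).

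**Figure D2:**
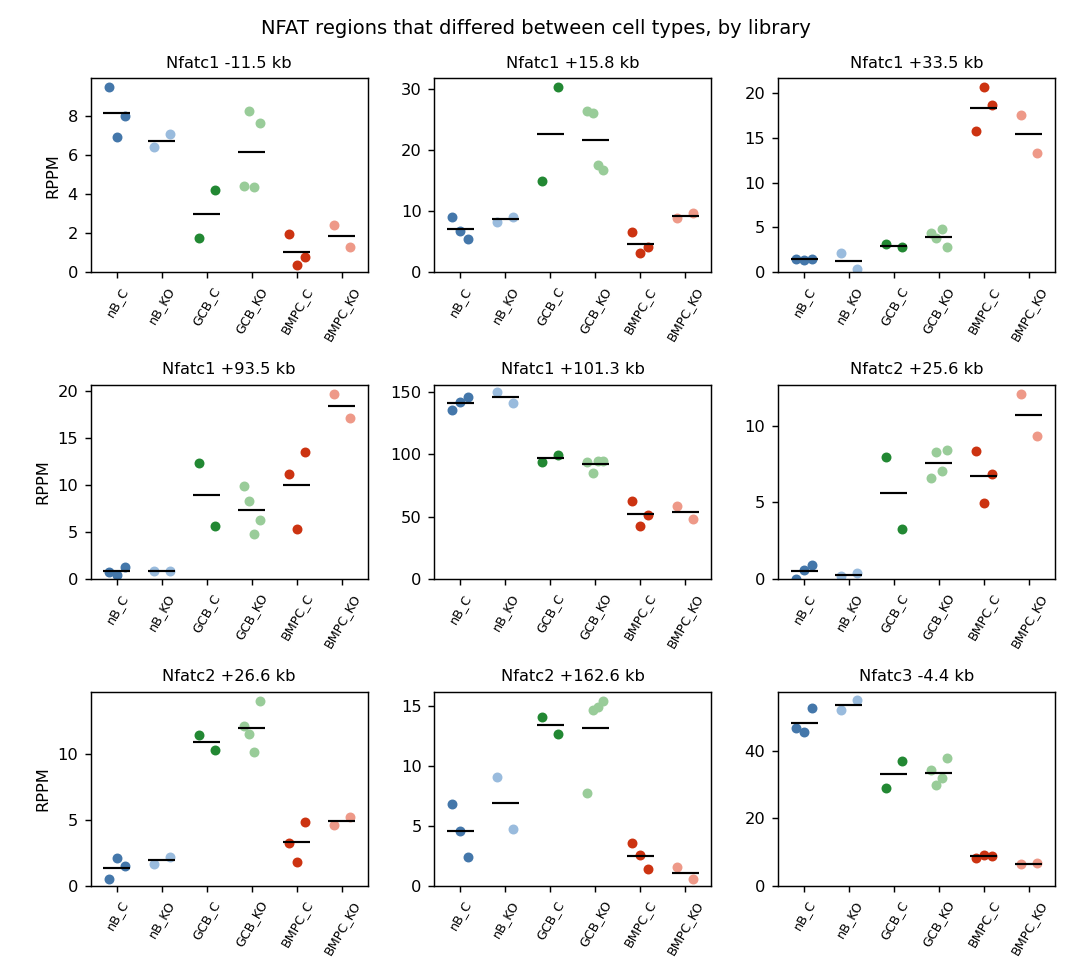
RPPM (linear axes from 0) of 9 NFAT regions in each library of the 6 groups, with a bar at each group mean; titles give the gene and the distance from its most upstream annotated start. The panels show regions highest in GCB (Nfatc2 +26.6 kb, up to 11.4 RPPM in C), in BMPC (Nfatc1 +33.5 kb, up to 20.6 RPPM in C) and in nB (Nfatc3 -4.4 kb, up to 52.7 RPPM in C).

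In C cells the called decreases of Nfatc3 lay upstream of the gene. The region at -4.4 kb measured 46.8, 45.4 and 52.7 RPPM in C nB, 29.0 and 37.0 RPPM in C GCB, and 8.06, 9.12 and 8.72 RPPM in C BMPC. No 2 C groups overlapped, and BMPC lay -2.35 ± 0.14 below nB (limma, adjusted p = 1.10e-13) and -1.81 ± 0.16 below GCB (adjusted p = 3.79e-10). The region at -6.1 kb (chr8:108576173-108577109), over an exon of the adjacent gene Dus2, measured 76.0, 69.5 and 64.6 RPPM in C nB, 67.3 and 77.3 RPPM in C GCB, and 29.3, 34.1 and 29.4 RPPM in C BMPC. One annotation column placed both regions with Dus2, so their assignment to Nfatc3 rests on the nearest start alone.

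The region over exon 3 of Nfatc3, at +25.1 kb, was low throughout. It measured 0.487, 0.754 and 0.744 RPPM in C nB, 0.880 and 2.34 RPPM in C GCB, and 2.86, 3.65 and 4.05 RPPM in C BMPC, a rise from nB to BMPC of 1.44 ± 0.33 (limma, adjusted p = 4.59e-04). The remaining Nfatc3 regions, 5 counting the start site, were not called in C cells.

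Summed over its regions, Nfatc1 had 458 ± 7.32 RPPM (SD, n = 3) in C nB, 466 ± 9.71 RPPM (n = 2) in C GCB and 349 ± 29.9 RPPM (n = 3) in C BMPC. Nfatc2 had 132 ± 8.09, 229 ± 13.2 and 149 ± 8.31 RPPM in the same groups, and Nfatc3 had 262 ± 10.6, 234 ± 7.55 and 164 ± 3.88 RPPM. Nfatc2 was thus highest in GCB, where its lowest C library (220 RPPM) lay above the highest of nB (141 RPPM) and BMPC (156 RPPM). Nfatc3 decreased from nB to GCB to BMPC without overlap, and for Nfatc1 nB and GCB overlapped while BMPC was lower than both. From C nB to C BMPC the mean of Nfatc1 +101.3 kb fell from 141 to 52.3 RPPM. Nfatc3 -6.1 kb and -4.4 kb, which 1 annotation column placed with Dus2, fell from 70.0 to 30.9 RPPM and from 48.3 to 8.64 RPPM. These regions made up most of the decreases of the sums. Log2 differences from C nB to C BMPC were positive at 13 of 25 Nfatc1 regions and at 2 of 8 Nfatc3 regions. In KO cells the sums were 484 ± 28.7, 441 ± 10.4 and 413 ± 14.3 RPPM for Nfatc1, 145 ± 17.5, 237 ± 6.30 and 166 ± 15 RPPM for Nfatc2, and 250 ± 7.48, 204 ± 13.7 and 155 ± 2.37 RPPM for Nfatc3. For Nfatc1 in BMPC the lowest KO library (403 RPPM) exceeded the highest C library (372 RPPM). Sums are a description and were not tested.

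**Figure D3:**
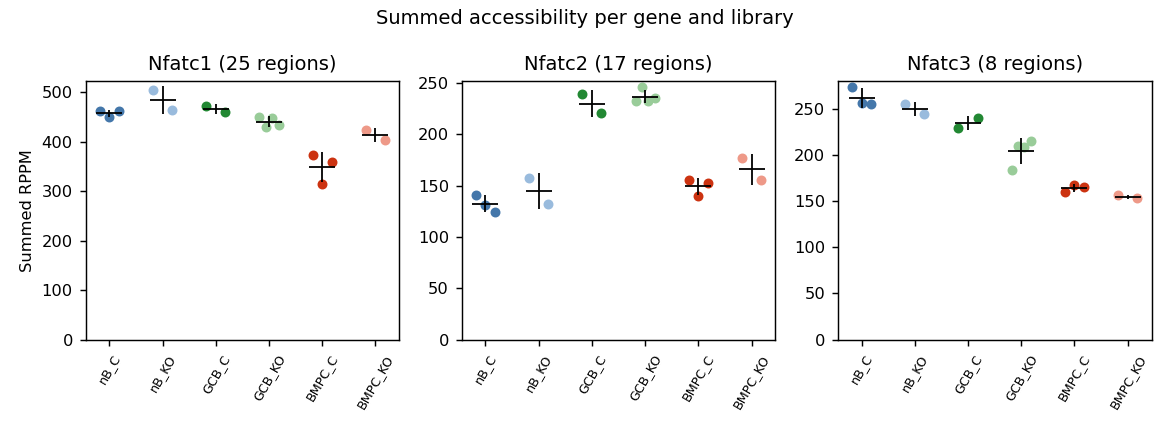
Summed RPPM over the 25 Nfatc1, 17 Nfatc2 and 8 Nfatc3 regions in each of the 16 libraries (points), with group mean ± SD (black) on axes from 0. Nfatc2 peaks in GCB of both genotypes (229 and 237 RPPM), and Nfatc3 is lowest in BMPC (164 and 155 RPPM).

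Across the 16 libraries, the genes whose summed accessibility was most like that of Nfatc1 among 4739 genes with at least 5 regions were B4galt5 (Pearson r = 0.963 of log2 sums), Lgmn (r = 0.948) and Ppap2b (r = 0.947). For Nfatc2 they were Alg8 (r = 0.975), Ehf (r = 0.973) and Pphln1 (r = 0.969), and for Nfatc3 they were Parp1 (r = 0.981), Fgfbp1 (r = 0.974) and Pik3ap1 (r = 0.974). These correlations span 3 cell types whose libraries share depth and source, and describe likeness only.

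The KO libraries were next compared between cell types in the same way. From KO nB to KO GCB, 15 NFAT regions rose (compared with 18.4% of all regions) and 1 fell (compared with 7.84%). From KO nB to KO BMPC, 11 rose (compared with 18.4%) and 7 fell (compared with 16.9%), and from KO GCB to KO BMPC, 5 rose (compared with 12.1%) and 9 fell (compared with 19.9%). With quantile normalization the last comparison gave 8 higher and 8 lower, and that from C GCB to C BMPC gave 4 higher and 12 lower. The same step moved the median of all regions by 0.119 and 0.144 in these comparisons. The shares of all regions called under it are not given, so the change in counts is not read as particular to NFAT. Regions called in the same direction in C and KO numbered 10 from nB to GCB (71.4% of the 14 C calls and 62.5% of the 16 KO calls), 13 from nB to BMPC (92.9% of 14 and 72.2% of 18) and 6 from GCB to BMPC (40% of 15 and 42.9% of 14). Over all regions the shared calls made up 76.9%, 79.9% and 77.7% of the C calls and 66.5%, 86.3% and 73.9% of the KO calls in the same order. The lower shares of the NFAT regions from GCB to BMPC were not tested. No NFAT region was called in opposite directions in C and KO, nor were more than 4 of all regions in any of these comparisons. The median log2 difference from KO nB to KO GCB was 0.41 over the NFAT regions and 0.124 over all regions.

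Comparing genotypes within a cell type, limma called 0 of 50 NFAT regions in nB, GCB or BMPC. Over all regions the shares called were 0% in nB, 0.0317% higher in GCB, and 0.0907% higher and 0.0136% lower in BMPC. At an unadjusted p under 0.05, 1 NFAT region was higher in KO nB (compared with 0.63% of all regions) and none was lower (1.04%). In GCB, KO exceeded C at 4 (7.45%) and lay under it at 4 (4.34%). In BMPC, KO exceeded C at 13 (6.96%) and lay under it at 2 (2.59%). Both KO BMPC libraries exceeded all 3 C BMPC libraries at 19 NFAT regions, 14 of them in Nfatc1, whereas 20% of all regions had that order. The reverse order held for 3 NFAT regions, compared with 13.8%. The counts of regions higher in KO BMPC include Nfatc1 +78.5 kb, Nfatc1 +81.8 kb and Nfatc2 +76.1 kb. These held few reads outside KO BMPC, so their place in the merged peak set may rest on that group. Those counts are then not independent of that choice. In nB, KO lay wholly above C at 6 NFAT regions (9.38%) and wholly below at 1 (11%), and in GCB at 3 (7.47%) and 5 (5.52%). The median log2 difference in BMPC was 0.16 over the NFAT regions, 0.33 over those of Nfatc1 and 0.028 over all regions.

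**Figure D4:**
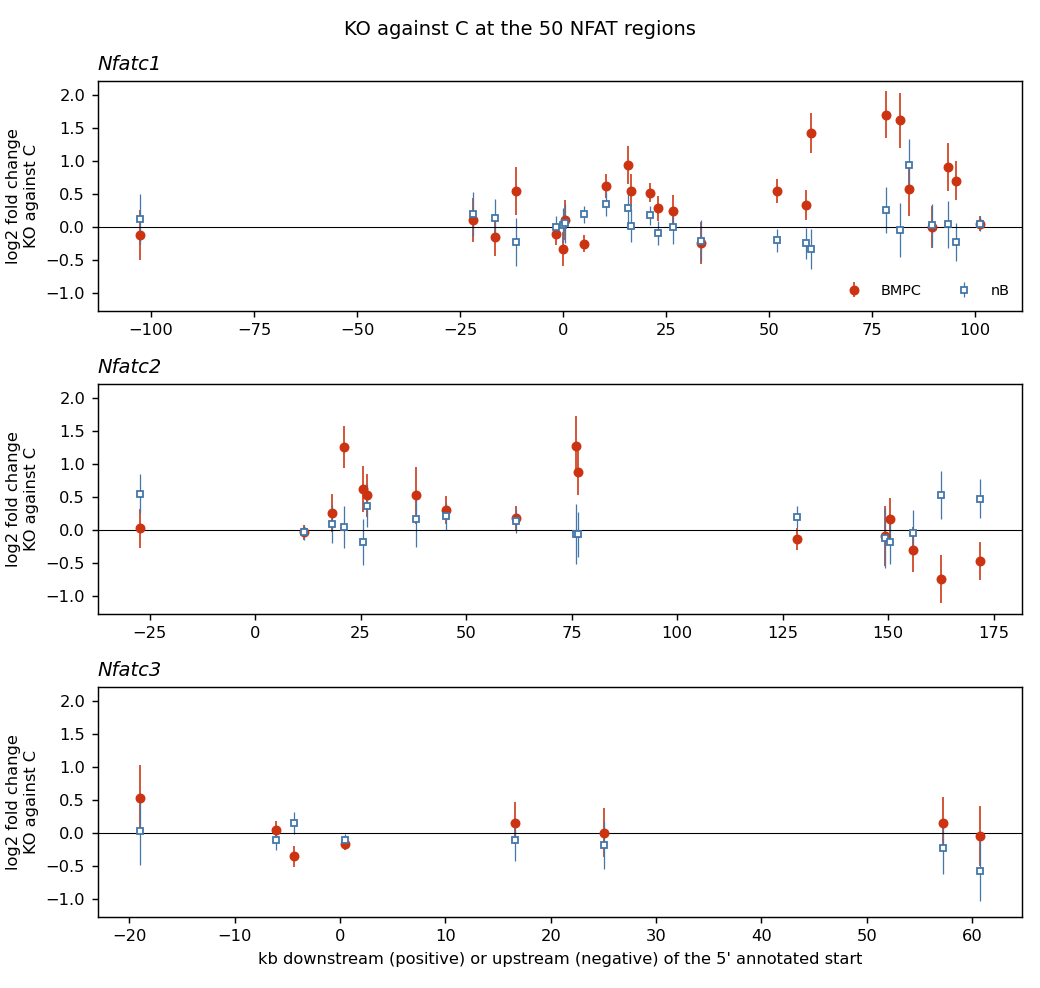
Log2 fold change of KO against C (limma on log2(RPPM + 1), ± SE) at the 50 NFAT regions in BMPC (filled circles) and nB (open squares), by distance in kb from the most upstream annotated start. The highest BMPC values are those of Nfatc1 at +78.5 kb (1.70) and +81.8 kb (1.61), while the start-site regions lie between -0.34 and -0.04. The regions at +78.5 kb and +81.8 kb held 11 or fewer reads in every library outside KO BMPC.

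Tests of the recovered read counts called more regions in BMPC, all of them higher in KO. The quasi-likelihood test of edgeR called 4 NFAT regions (compared with 1.45% of all regions higher and 0.361% lower), the likelihood ratio test of edgeR called 5 (2.01% and 0.526%) and DESeq2 called 2 (0.618% and 0.128%). Limma fitted to the compared groups alone called 2 (0.24% and 0.0363%), limma without a variance trend called 1 (0.0363% and 0.00302%), and limma at an adjusted p limit of 0.05 called 2 (0.542% and 0.065%). Nfatc1 +78.5 kb was among the calls of both edgeR tests and of each of these limma fits. Both edgeR tests also called Nfatc1 +81.8 kb, and the likelihood ratio test called Nfatc2 +76.1 kb. These calls may rest on the choice of peaks, as stated above. In GCB the quasi-likelihood test (0.00151% of all regions higher), the likelihood ratio test (0.0166% higher and 0.00151% lower), DESeq2 (0%) and limma on the compared groups alone (0.0121% higher) called 0 NFAT regions, and the limit of 0.05 gave 1, higher in KO (0.171% higher and 0.00604% lower). In nB the 3 count tests called 0 NFAT regions. Their shares over all regions in nB are not given, so this count is not read as particular to NFAT.

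The region with the smallest limma p in Nfatc1 was the intron 9 region at +78.5 kb (chr18:80831206-80831370), which held 3, 3 and 4 reads in C BMPC and 27 and 25 reads in KO BMPC. It measured 0.390, 0.547 and 0.623 RPPM in C and 3.28 and 4.67 RPPM in KO, a log2 difference of 1.70 ± 0.35 (limma, adjusted p = 0.0182). EdgeR called it (quasi-likelihood, adjusted p = 5.37e-04, and likelihood ratio, adjusted p = 8.59e-06), whereas DESeq2 gave it no adjusted p. In every library outside KO BMPC it had at most 4 reads, so its place in the merged peak set may rest on the group where it was high, and its tests are then not independent of that choice. The intron 7 region at +60.1 kb, which rose in both GCB and BMPC of C mice, measured 6.50, 3.10 and 5.29 RPPM in C BMPC and 12.8 and 16.4 RPPM in KO BMPC. That difference of 1.42 ± 0.30 (limma, adjusted p = 0.0207) was called by the quasi-likelihood test (adjusted p = 3.81e-05), the likelihood ratio test (adjusted p = 7.35e-07) and DESeq2 (adjusted p = 6.92e-04). Its KO GCB libraries (8.81, 12.7, 11.8 and 10.5 RPPM) overlapped C GCB, and the KO BMPC values lay at or above that range.

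In Nfatc2 the smallest p was that of the intron 1 region at +21.1 kb, whose sequence heads the set above. It measured 1.71, 0.942 and 1.30 RPPM in C nB, 1.81 and 0.984 RPPM in KO nB, 6.60 and 4.68 RPPM in C GCB, and 4.41, 7, 7.45 and 11.9 RPPM in KO GCB. In BMPC it measured 5.59, 5.29 and 6.38 RPPM in C and 16.6 and 13.6 RPPM in KO, from 43, 29 and 41 reads and from 137 and 73 reads. Both genotypes rose from nB to GCB and to BMPC, and the KO BMPC values were the highest of all groups. The genotype difference of 1.25 ± 0.32 (limma, adjusted p = 0.0614) was called by the quasi-likelihood test (adjusted p = 6.40e-05), the likelihood ratio test (adjusted p = 3.34e-07) and DESeq2 (adjusted p = 0.00118). In C cells its rise from nB to GCB (1.52 ± 0.32, adjusted p = 3.95e-04) was lost without GCB C replicate 1 (adjusted p = 0.0145).

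A further 2 regions, chosen after their values were seen, were called by edgeR only. The intron 9 region of Nfatc1 at +81.8 kb measured 1.43, 1.09 and 1.09 RPPM in C BMPC and 4.98 and 6.53 RPPM in KO BMPC (limma, 1.61 ± 0.41, adjusted p = 0.0609). It held 11, 6 and 7 reads in C BMPC, 41 and 35 reads in KO BMPC, and at most 5 reads in every nB and GCB library. Its place in the merged peak set may therefore also rest on KO BMPC, and its tests are then not independent of that choice. The intron 5 region of Nfatc2 at +76.1 kb held 4, 0 and 1 reads in C BMPC and 22 and 7 reads in KO BMPC (limma, 1.27 ± 0.45, adjusted p = 0.241). It too had at most 4 reads in every library outside KO BMPC, and the same limit holds for it. Together with the 3 regions above, these are the 5 regions of the likelihood ratio test. Each of them lay in an intron, as did 62% of the NFAT regions.

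**Figure D5:**
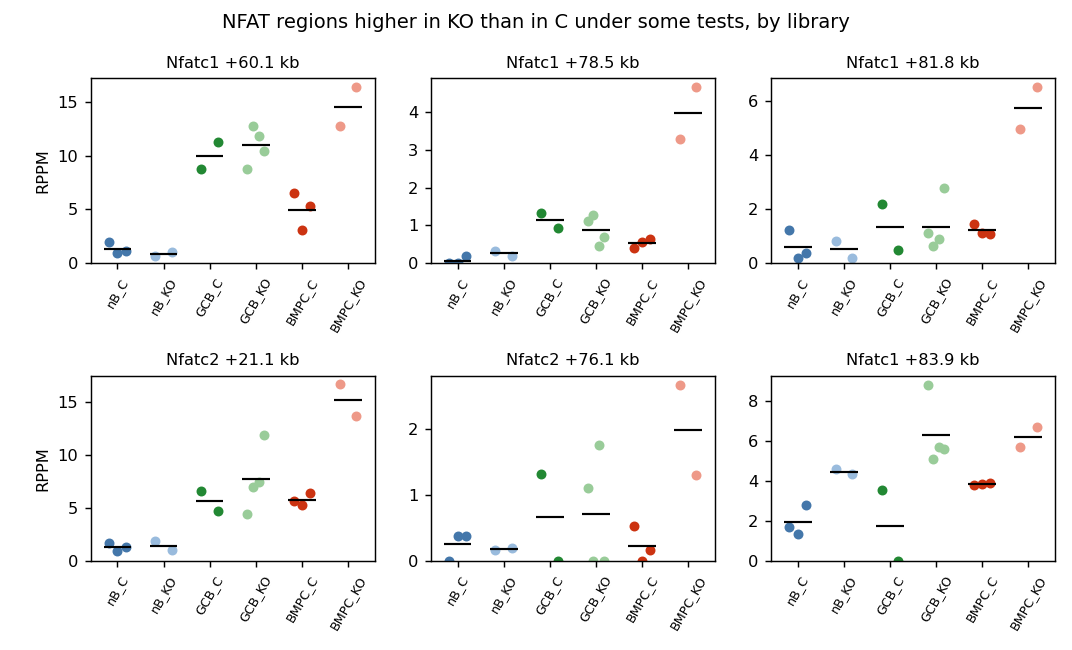
RPPM (linear axes from 0) in each library of the 6 groups, with a bar at each group mean, for the 5 NFAT regions that a count test called higher in KO BMPC and, at lower right, Nfatc1 +83.9 kb. At Nfatc2 +21.1 kb both KO BMPC libraries (16.6 and 13.6 RPPM) lie above the 3 C BMPC libraries (5.29 to 6.38 RPPM).

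At the start sites, KO and C BMPC differed little. The P2 region measured 61.2 and 56.7 RPPM in KO BMPC, below the 3 C libraries (-0.26 ± 0.13, limma, adjusted p = 0.533), the P1 region overlapped C (-0.34 ± 0.25, adjusted p = 0.827), and the start-site regions of Nfatc2 (-0.04 ± 0.11) and Nfatc3 (-0.16 ± 0.09, adjusted p = 0.639) did not pass. The Nfatc3 region with the smallest p, at -4.4 kb, was lower in KO BMPC at 6.32 and 6.72 RPPM (-0.36 ± 0.16, adjusted p = 0.444). In GCB the start-site regions of Nfatc3 (83.7, 95.5, 90.8 and 101 RPPM in KO, -0.30 ± 0.09, adjusted p = 0.145) and of Nfatc1 P2 (36.3, 40.7, 45.6 and 47.5 RPPM in KO, -0.36 ± 0.12, adjusted p = 0.215) lay below both C libraries without passing.

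One Nfatc1 region in GCB, at +83.9 kb in intron 9 and chosen after its values were seen, passed an adjusted p limit of 0.05 but not that of 0.01. It measured 3.52 and 0 RPPM in C GCB and 8.81, 5.09, 5.70 and 5.59 RPPM in KO GCB, from 8 and 0 reads and from 8, 8, 13 and 8 reads. The difference of 1.75 ± 0.39 (limma, adjusted p = 0.0498) was called without GCB C replicate 1 (2.84, adjusted p = 8.26e-04), which leaves only the library with 0 reads in the C group.

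The interaction terms asked whether the genotype difference in BMPC departed from that in nB or in GCB. Limma called 0 of 50 NFAT regions and 0% of all regions for either term. The count tests also called 0 NFAT regions, but their shares over all regions are not given for these terms. At an unadjusted p under 0.05, the BMPC difference was above that of nB at 7 regions (compared with 3.95% of all regions) and below it at 4 (1.3%), and it was above that of GCB at 11 regions (4.63%) and below it at 1 (3.7%). No NFAT region was therefore shown to respond to the genotype in one cell type and not in another.

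The calcium and calcineurin genes around NFAT were examined at their start sites. Of 30 listed genes, 25 had a region within 1000 bp of an annotated start, and Nfatc4, Ppp3cb, Ppp3cc, Homer2 and Calm3 had none in the table. Among the calcineurin inhibitors, Rcan2 rose from C nB to C GCB (0.372 to 1.13 RPPM against 2.81 to 3.96 RPPM, log2 difference 1.34 ± 0.40, limma, adjusted p = 0.00752), 1 of 25, compared with 8.37% of all start-site regions. The Rcan2 values rest on few reads, since 3 reads were 1.32 and 1.41 RPPM in the C GCB libraries. Rcan3 rose from C GCB to C BMPC (18.5 to 20.6 RPPM against 43.4 to 49.3 RPPM, 1.19 ± 0.15), again 1 of 25, compared with 10.8%. Between C nB and C BMPC none of the 25 was called (compared with 9.56% higher and 4.49% lower). The median log2 differences of the 25 were -0.17 from nB to GCB, 0.08 from nB to BMPC and 0.28 from GCB to BMPC. In KO cells Rcan3 (1.13 ± 0.14) and the NFAT kinase gene Dyrk1a (1.01 ± 0.11) rose from GCB to BMPC (2 of 25, compared with 9.91% of start-site regions), and Orai1, which encodes the pore of the store-operated calcium channel, fell from nB to GCB (-1.17 ± 0.14, 1 of 25, compared with 6.69%). Dyrk1a (0.71 ± 0.12, limma, adjusted p = 1.25e-05) and Orai1 (-0.90 ± 0.15, adjusted p = 2.52e-05) changed in the same direction in C cells, under the 2-fold limit. Between genotypes 0 of the 25 were called in nB, GCB or BMPC, where 0.026% of start-site regions were called in each direction in BMPC.

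Markers of the sorted cells were in part as labelled. Tnfrsf17 was highest in BMPC (18.4 to 22.6 RPPM in C), and the B cell genes Pax5, Ms4a1 and Cd79a fell from nB to BMPC, whereas the start-site region of Bcl6 was lower in GCB than in nB and Sdc1, which encodes CD138, had no start-site region. Of 6 T cell markers only Cd28 had a start-site region, summing to 2.23 to 2.92 RPPM in C nB, 4.84 to 5.62 RPPM in C GCB and 27.4 to 28.5 RPPM in C BMPC, and Cd3e, Cd3g, Cd3d, Cd4 and Cd8a had none. Of 5 myeloid markers 2 had one, with a sum of 5.65 to 6.70 RPPM in C nB, 3.75 to 4.84 RPPM in C GCB and 11.8 to 14 RPPM in C BMPC, where Cebpe rose and Itgam fell against nB, and Csf1r, Mpo and Elane had none. Of 3 erythroid markers 2 had one, with a sum of 51.2 to 57.0 RPPM in C nB, 34.7 to 42.2 RPPM in C GCB and 63.9 to 74.7 RPPM in C BMPC, and Gata1 had none. Klf1 held most of this sum (mean 49.5 RPPM in C nB), from a region 776 bp from its annotated start. Between KO and C BMPC none of these markers was called. Their part in the NFAT differences between cell types was not tested, and a change in the share of cells with an open region cannot be told apart from a change within each cell.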

How the data were processed

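ATAC-seq libraries were mapped by the authors to mm9 with Bowtie, duplicates were handled with Picard 1.127, and peaks were called per sample with MACS2 and merged. The submitters' processing notes name Bowtie 1.1.1 and MACS2 2.1.0.20140616, while the methods of the study name other versions of both, and which were used cannot be told. The deposited values are reads per 1000000 reads in peaks (RPPM, an RPM unit) for 66177 regions in 16 libraries. One more KO BMPC library, which the authors left out for aberrant reads in peaks, is not analysed here. The table also holds the authors' fold changes, p-values and FDR from edgeR 3.12.1, which were not used. Division by the smallest step of each library gave whole reads for 100% of values, within 0.01 read, and replicate libraries differed by more than counting noise (mean chi-square per region 1.22 to 2.22).

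Differences were tested on log2(RPPM + 1) in R 4.3.3 by limma 3.58.1, with a mean for each of the 6 groups, a variance trend and Benjamini-Hochberg adjustment over all regions. Calls required a 2-fold change and an adjusted p not above 0.01. The fit was repeated after TMM scaling or quantile normalization, with pseudocounts of 0.1 or 5 RPPM, without regions averaging under 1 RPPM, without the trend, on the 2 compared groups alone, with the limit at 0.05, with each library left out, a replicate block, regions named by both annotation columns, and edgeR 4.0.16 and DESeq2 1.42.0 on the recovered reads. Scripts were tested on simulated data. Sequence came from NCBIM37 and introns from GENCODE vM1, numbered in the longest transcript of each gene. Tables and plots were made with Python 3.11.15, pandas 2.3.3, numpy 2.4.6 and matplotlib 3.10.9.

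The regions named were, for each gene, those at annotated starts, the 2 largest called increases and decreases in each C comparison, the smallest p for KO against C in BMPC and the highest mean. The members and all gene lists were chosen with earlier results of these data known. Each library came from separate mice, and its reads, which carry no molecular identifiers, bound only counting error. Some marker genes and 1 region sequence are not reported here.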

Additional observations from a re-analysis of the deposited data

Results flagged for a closer look

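Among 24 values tested in the 4 KO GCB libraries (21 named regions and 3 sums), 3 had a library far from the others, where the gap to its neighbor as a share of the range was above the 95% limit of Dixon for 4 values. Chance gives such a gap in about 1 of 20 groups. At Nfatc1 +16.6 kb the share was 0.861, with replicate 4 at 6.29 RPPM and the others at 11.8 to 12.7 RPPM. At Nfatc1 +101.3 kb it was 0.892, with replicate 2 at 84.7 RPPM and the others at 93.6 to 94.7 RPPM. At Nfatc2 +162.6 kb it was 0.903, with replicate 1 at 7.71 RPPM and the others at 14.6 to 15.4 RPPM. Without KO GCB replicate 1, the rise of Nfatc2 +162.6 kb from KO nB to KO GCB was called (log2 difference 1.08, limma, adjusted p = 0.00845), and with it the difference was 0.86.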

How the results depend on the processing

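Among the 21 named regions, 3848 values under an alternative kept their direction and their side of the threshold, 93 lost a call, 46 gained one and none with a call in either fit changed direction. A pseudocount of 5 RPPM lowered the number of NFAT regions called to 6 from C nB to C GCB, 7 from C GCB to C BMPC, 7 from KO nB to KO GCB, 9 from KO nB to KO BMPC and 4 from KO GCB to KO BMPC, as its construction lowers the log2 differences of low regions. Among the regions named by both annotation columns, which are fewer by construction, the counts were 9 from C nB to C GCB, 6 from C nB to C BMPC, 7 from KO nB to KO BMPC and 7 from KO GCB to KO BMPC. KO against C in BMPC gave 2 calls with the compared groups only, 1 without a trend, 2 with the limit at 0.05, 4 with edgeR quasi-likelihood, 5 with edgeR likelihood ratio and 2 with DESeq2, and KO against C in GCB gave 1 with the limit at 0.05; the cause was not tested. Leaving out each library in turn gave 10 to 13 calls from C nB to C GCB, 14 to 15 from C nB to C BMPC, 13 to 18 from C GCB to C BMPC, 10 to 19 from KO nB to KO GCB (10 without nB KO replicate 2), 12 to 16 from KO nB to KO BMPC, 6 to 16 from KO GCB to KO BMPC (6 without BMPC KO replicate 2 and 9 without BMPC KO replicate 1), 0 to 1 for KO against C in GCB, and 0 for KO against C in nB and BMPC and for both interactions. With a pseudocount of 0.1 RPPM, KO GCB to KO BMPC gave 1 higher and 9 lower. The counts between cell types in this section stand without the shares of all regions under the same settings. They describe only how the calls depend on processing. Quantile normalization moved the median of all regions by -0.112 from C nB to C GCB, by 0.144 from C GCB to C BMPC, by -0.192 from KO nB to KO GCB and by 0.119 from KO GCB to KO BMPC. F2 and M1 name a pool in each GCB genotype, but the labels do not say whether a name marks a shared litter or day. Same-named libraries had r = 0.0363 and 0.0638, which with 2 C pools mirror the crossed values and cannot settle it, and a replicate block on them left 0 calls. Depth limits GCB most, where 3 reads amount to up to 3.3 RPPM.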
